A study of Rattus norvegicus with 24 samples.

Results

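The 6 mature miRNAs described here are rno-miR-296-3p, rno-miR-31a-5p, rno-miR-708-5p, rno-miR-187-3p, rno-miR-190a-5p and rno-miR-218a-2-3p. They were chosen by a measured value, the unadjusted p of the treatment-by-region interaction, which asks whether the difference between injured and sham-operated rats was the same in thalamus as in cortex. None of the 6 passed adjustment for multiple testing, nor did any other miRNA. In the fit of all 24 libraries, 407 of the 728 miRNAs listed had enough reads to be tested, and 17 of them had an unadjusted interaction p under 0.05, which is 4.18% of those tested, where the threshold itself lets through 5%. After Benjamini-Hochberg adjustment 0 of 407 (0%) were left by edgeR, DESeq2 (18 at unadjusted p under 0.05) and limma voom (24), and the smallest adjusted p in edgeR was 1.00. The 6 miRNAs are therefore a list that leans by region in this set of rats, and a difference of the injury response between regions was not established for any of them.

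The perilesional cortex and ipsilateral thalamus were profiled by small RNA sequencing in 12 adult male Sprague-Dawley rats, 3 months after lateral fluid-percussion injury (TBI, 6 rats) or after the same anesthesia and surgery without the impact (sham-operated controls, 6 rats). In this injury model a pressure pulse of saline is delivered onto the intact dura through a craniectomy. No genetic modification or drug treatment separated the groups, and the 12 rats gave both regions, which makes 4 groups of 6 libraries with each rat in a cortex and a thalamus group. The study took the sequenced TBI rats from those with signs of chronic perilesional inflammation on imaging, so the values describe such rats.

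A miRNA is cut from a hairpin precursor, which can release a mature strand from each of its arms, named 5p and 3p. The mature strand guides a silencing complex to messenger RNAs, mainly through pairing of its bases 2 to 8, the seed, and lowers their stability and translation. Brain tissue expresses many miRNAs at levels that differ between regions and between cell types, so that a bulk sample mixes neurons, glia, vessels and blood. In such samples fewer cells of a type and less miRNA per cell cannot be told apart.

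The mature sequences of all 6 were matched by name in RefSeq tables of the rat assembly GRCr8 and are printed 5′ to 3′ with the seed in capitals, to show that the 6 do not belong to 1 family.
rno-miR-296-3p: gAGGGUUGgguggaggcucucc
rno-miR-31a-5p: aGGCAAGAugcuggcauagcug
rno-miR-708-5p: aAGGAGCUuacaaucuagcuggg
rno-miR-187-3p: uCGUGUCUuguguugcagccgg
rno-miR-190a-5p: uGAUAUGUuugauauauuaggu
rno-miR-218a-2-3p: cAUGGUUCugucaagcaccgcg
The 6 seeds were all different. Only miR-708-5p and miR-190a-5p shared their seed with another mature rat miRNA in the table, miR-28-5p and miR-190b-5p respectively, whose sequences show how far the likeness reached.
rno-miR-28-5p: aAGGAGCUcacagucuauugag
rno-miR-190b-5p: uGAUAUGUuugauauuagguu
Counted from the 5′ end, miR-708-5p and miR-28-5p were identical over the first 8 bases and had the same base at 16 of 22 positions. For miR-190a-5p and miR-190b-5p the first 15 bases were identical.

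The hairpins lay on 6 different chromosomes of GRCr8. The hairpin of miR-296 was at chr3:183470069-183470146 on the minus strand and overlapped no other gene of the annotation, with 375 bases between it and the hairpin of miR-298 (chr3:183470522-183470603, minus strand). The hairpin of miR-31a was at chr5:108714849-108714954 on the minus strand, within the extent of a long non-coding RNA gene, LOC130062807. For miR-708 the stretch from the 5p to the 3p arm was chr1:160011168-160011235 on the plus strand, within the extent of Tenm4, which encodes a teneurin transmembrane protein. The hairpin of miR-187 (chr18:16005947-16006050, minus strand) overlapped no other gene. That of miR-190a (chr8:76732179-76732263, minus strand) lay within the extent of Tln2, which encodes the cytoskeletal protein talin 2, and the second hairpin of miR-218a (chr10:20572523-20572632, plus strand) within Slit3, which encodes a secreted axon guidance protein. Whether a hairpin fell in an exon or an intron was not looked up, since the gene table gives extents only.

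Depth ranged from 744564 to 4069284 miRNA reads per library in cortex and from 523298 to 4139901 in thalamus. Levels are given as CPM, miRNA reads brought to a common library total after scaling by trimmed mean of M-values (TMM), on which 1 read was worth 0.342 to 1.56 CPM in cortex and 0.206 to 2.24 CPM in thalamus. The thalamus libraries of sham rat 55 and TBI rat 56 were the shallowest, with 523298 and 538194 reads, and stood apart on the second principal component of log2 CPM (0.55 and 0.37, against -0.30 to 0.19 in the other 22 libraries). On the first component, which separated the regions, both lay with the thalamus libraries. The neuronal markers miR-124-3p, miR-9a-5p, miR-128-3p and miR-132-3p were counted in all groups, and 3 of 3 oligodendrocyte markers were higher and 4 of 4 neuronal markers lower in thalamus than in cortex (edgeR, adjusted p under 0.05, average of sham and TBI).

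The first question was how the 6 stood within the interaction fit that chose them. The interaction is the log2 difference between TBI and sham in thalamus minus that in cortex, and was negative in 13 of the 17 miRNAs under the threshold (3.19% of those tested) and in all 6 described here. It was -1.22 for miR-296-3p (SE 0.41, unadjusted p = 0.00593 in edgeR), -1.08 for miR-31a-5p (SE 0.45) and -0.75 for miR-708-5p (SE 0.32). It was -0.53 for miR-187-3p (SE 0.24), -1.09 for miR-190a-5p (SE 0.50) and -1.19 for miR-218a-2-3p (SE 0.54, unadjusted p = 0.0383 in edgeR). A negative value means that the injured-to-sham ratio was lower in thalamus than in cortex, and the sign says nothing about whether a miRNA rose or fell in either region. The median over the 6 was -1.09, against -0.01 over all 407, a gap that the choice of the 6 fixed. The adjusted p was 1.00 for each of them. Just inside the threshold lay miR-329-5p (interaction -0.47, unadjusted p = 0.0497 in edgeR), and just outside it miR-22-5p (0.41, unadjusted p = 0.0518 in edgeR). The other 10 miRNAs inside it were miR-375-3p, miR-132-5p, miR-130b-5p, miR-138-5p, miR-212-5p, miR-10b-5p, miR-34c-3p, miR-26a-5p, miR-210-3p and miR-3085.

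**Figure D1:**
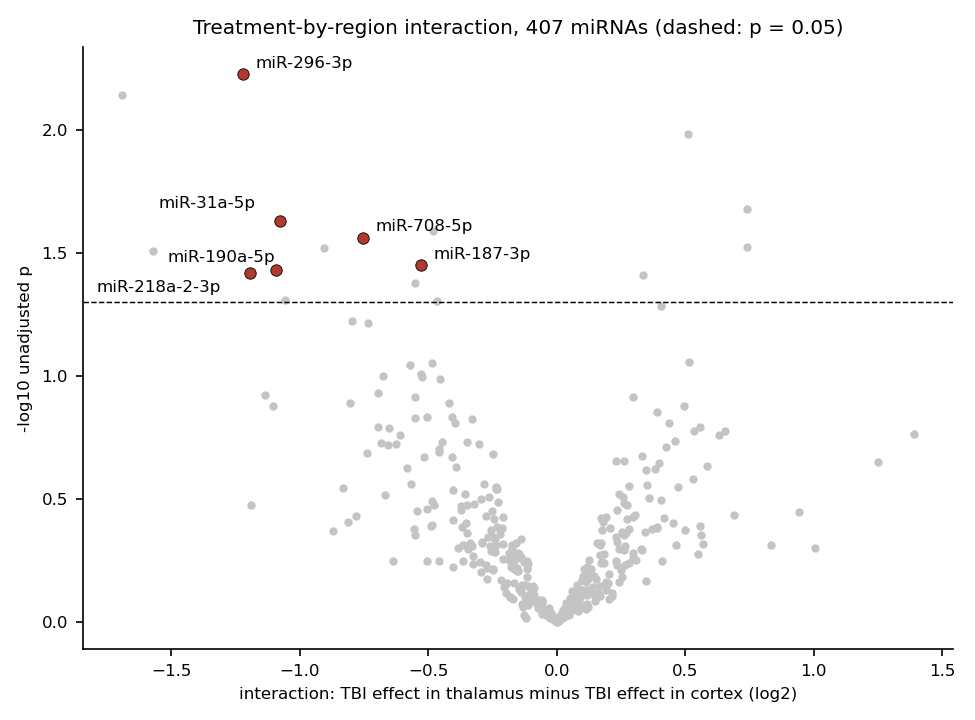
Each point is 1 of the 407 tested miRNAs, with the interaction (TBI minus sham in thalamus, minus TBI minus sham in cortex, log2) on the horizontal axis and -log10 of the unadjusted edgeR p on the vertical axis, and the dashed line marks the threshold of the rule. The 6 labelled miRNAs lie on the negative side above the line, from -1.22 to -0.53, among 17 points above it, with miR-296-3p the highest point of the plot, and 0 of the 407 passed adjustment.

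Within each region alone, which the interaction is built from and which is therefore given as a description, 0 of the 6 passed an adjusted p under 0.05. Of the 6, 5 had enough reads to be fitted in the 12 cortex libraries, where 5.93% of 371 miRNAs passed, and 5 of 6 in the 12 thalamus libraries, where 0.513% of 390 passed. In cortex the 5 fitted members lay above sham, with log2 differences of 0.39 to 0.70 and a median of 0.44, against 0.05 over all miRNAs tested. In thalamus the log2 differences of the 5 fitted members ran from -0.61 to 0.16, with a median of -0.41 against -0.03 over all. The lean was thus made of higher values in TBI cortex and, for 4 of the 5 fitted in thalamus, lower values in TBI thalamus. Levels of some cell type markers moved with the same contrast in cortex. The summed level of the 4 neuronal markers was 330181 to 610579 CPM in sham cortex and 250817 to 333143 CPM in TBI cortex. That of 6 epithelial miRNAs was 21.9 to 29.4 CPM (median 24.2) in sham cortex and 38.4 to 231 CPM (median 45.4) in TBI cortex. No marker of these lists was at 0 throughout a group. Within the neuronal list, miR-128-3p (log2 -0.75) and miR-132-3p (-0.55) were lower in TBI cortex at an edgeR adjusted p under 0.05. miR-9a-5p (-0.27) did not pass, nor did miR-124-3p (0.15), which had the opposite sign. The epithelial list includes miR-375-3p, itself 1 of the 17, and only 2 of its 6 miRNAs were fitted in cortex. In cortex 1 of 3 muscle miRNAs was called lower and 1 of 3 choroid plexus and ependyma miRNAs higher. The oligodendrocyte list and the vessel and red cell list had 0 called. The 7 leukocyte and microglia miRNAs had a median log2 difference of 0.58 in cortex, with 0 called. In thalamus their median was 0.79 over 6 fitted, with 2 called higher. Within this list miR-21-5p was at -0.01 in cortex and -0.10 in thalamus. The part of such shifts in the values of the 6 miRNAs was not tested.

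**Figure D2:**
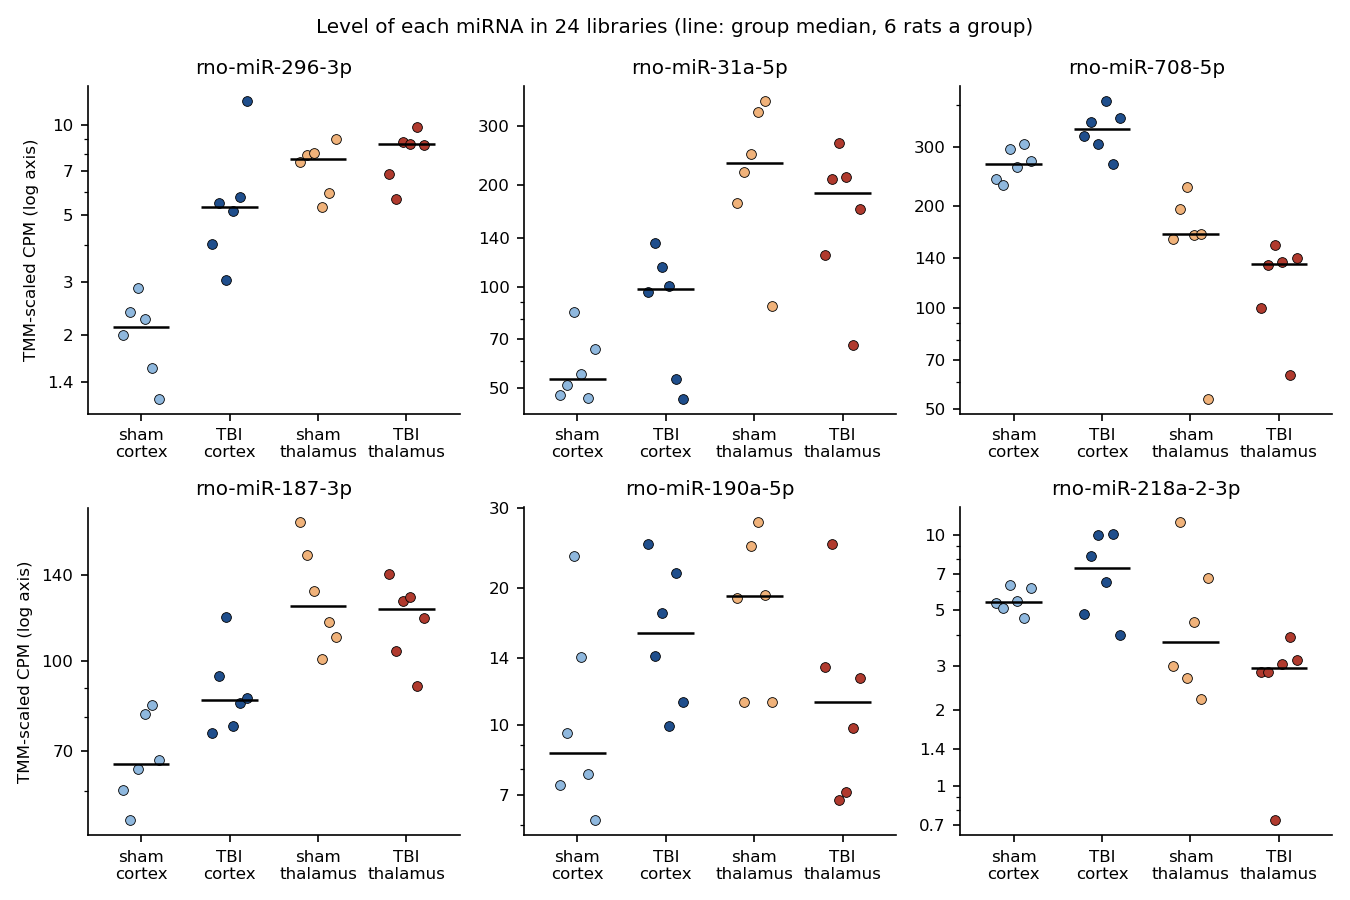
The TMM-scaled CPM of each miRNA is plotted on a log axis for every library, with 6 rats in each of the 4 groups and a line at the group median. The cortex groups of miR-296-3p do not overlap, whereas TBI and sham overlap in both regions for the other 5 miRNAs and in thalamus for miR-296-3p.

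miR-296-3p had the lowest interaction p of the 6 and rested on few reads. miR-296 is best known from work on blood vessel growth, and its hairpin shares with that of miR-298 a neighbourhood of imprinted genes. Sham cortex held 1.23 to 2.86 CPM (median 2.14, 1 to 7 reads a library) and TBI cortex 3.06 to 12.0 CPM (median 5.34, 4 to 15 reads). Sham thalamus held 5.33 to 8.95 CPM (median 7.72, 4 to 39 reads) and TBI thalamus 5.68 to 9.83 CPM (median 8.60, 5 to 36 reads). All 6 TBI cortex libraries were above all 6 sham cortex libraries, while in thalamus the groups overlapped over most of their range. Such a separation was seen in 2.43% of the miRNAs fitted in cortex and 1.28% of those fitted in thalamus, but miR-296-3p did not pass the read filter in cortex alone, and both cortex groups were near the 3 reads that a count of 0 allows (up to 4.67 CPM in the shallowest cortex library). In the order of medians only the step from sham to TBI cortex was without overlap, and TBI cortex, sham thalamus and TBI thalamus each overlapped their neighbour. Within rats, thalamus exceeded cortex by 0.95 to 2.16 log2 units in sham rats (median 1.42) and by -0.44 to 1.27 in TBI rats (median 0.65). Of the 6 TBI rats, 5 lay below the lowest sham rat, and TBI rat 45, at 1.27, lay within the sham range. The average thalamus-to-cortex difference over sham and TBI, which the rule did not use, was 1.06 (log2, SE 0.20, 2.08-fold, edgeR adjusted p = 0.000145), with thalamus higher in 11 of 12 rats. Since miR-296-3p passed the read filter through the thalamus libraries, where it was high, this difference is given as a description. Between TBI and sham in thalamus alone the log2 difference was 0.16 (SE 0.21). The cortex gap, on 1 to 15 reads, enters both the interaction and the average TBI effect, which is therefore given as a description. The average of the TBI effect over both regions was 0.76 (log2, SE 0.20, 1.69-fold, edgeR adjusted p = 0.0250), with TBI above the sham median in 6 of 6 rats in cortex and 4 of 6 in thalamus. This call did not hold with the rat as a random replicate block (0.67, limma voom adjusted p = 0.139), nor without rat 26 (0.79, edgeR adjusted p = 0.0538), 38 (0.73, edgeR adjusted p = 0.0755), 50 (0.75, edgeR adjusted p = 0.0663), 52 (0.77, edgeR adjusted p = 0.0553) or 63 (0.62, edgeR adjusted p = 0.0762).

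The other arm of the hairpin and the neighbouring hairpin of miR-298 were read for the same comparisons. miR-296-5p had 0 to 14 reads a library in cortex and 0 to 45 in thalamus, and the 3p arm held 51.4% to 64.7% of the hairpin's reads in the 4 groups. The thalamus-minus-cortex difference of miR-296-5p, which also passed the filter through thalamus alone and is given as a description, was 1.35 (log2, SE 0.35, edgeR adjusted p = 0.00288). Its average TBI effect of 1.08 (SE 0.35, edgeR adjusted p = 0.0757) and its interaction of -1.14 (SE 0.71, edgeR adjusted p = 1.00) did not pass. miR-298-5p, counted at 13.2 to 50.4 CPM in cortex and 60.3 to 189 CPM in thalamus, was higher in thalamus by 2.03 (log2, SE 0.17, 4.09-fold, edgeR adjusted p = 7.54e-10) and in 12 of 12 rats. Its average TBI effect was 0.69 (SE 0.17, edgeR adjusted p = 0.0151), above the sham median in 6 of 6 rats in each region. That call did not hold with the random replicate block (0.65, limma voom adjusted p = 0.0548) or without rat 38 (0.62, edgeR adjusted p = 0.0653) or rat 50 (0.68, edgeR adjusted p = 0.0531). Its log2 difference between TBI and sham was 0.85 in cortex (SE 0.30) and 0.58 in thalamus (SE 0.21), with an interaction of -0.24 (SE 0.34) that did not pass. Whether its interaction differed from that of miR-296-3p was not tested. For miR-298-3p, which passed the filter through thalamus alone, the region difference was 1.64 (SE 0.30, edgeR adjusted p = 9.84e-05), a description, and its average TBI effect of 0.55 (SE 0.31, edgeR adjusted p = 0.294) did not pass.

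miR-31a-5p is the rat counterpart of miR-31, a miRNA much studied in epithelia and tumour cell spread. Sham cortex held 46.7 to 84.2 CPM (median 53.0) and TBI cortex 46.4 to 135 CPM (median 98.2). Sham thalamus held 87.3 to 357 CPM (median 234) and TBI thalamus 66.9 to 268 CPM (median 190). In cortex 5 of 6 TBI rats lay above the sham median and in thalamus 5 of 6 lay below it, and TBI and sham overlapped in both regions. The log2 difference between TBI and sham was 0.70 in cortex (SE 0.25, edgeR adjusted p = 0.106) and -0.44 in thalamus (SE 0.34, edgeR adjusted p = 0.813). The medians spanned 4.41-fold, from sham cortex to sham thalamus, but each group overlapped the next. The thalamus minima were those of rat 55 (39 reads) and rat 56 (34 reads), and without these libraries sham thalamus held 177 to 357 CPM and TBI thalamus 124 to 268 CPM. Within rats, thalamus exceeded cortex by 0.41 to 2.91 log2 units in sham rats (median 1.98) and by 0.33 to 1.86 in TBI rats (median 0.85), with 2 TBI rats below the lowest sham rat. The average thalamus-to-cortex difference was 1.49 (log2, SE 0.23, 2.81-fold, edgeR adjusted p = 7.39e-06) and was present in 12 of 12 rats. Without rats 55 and 56 it was 1.62 (edgeR adjusted p = 4.69e-07). The average TBI effect was 0.11 (SE 0.22, edgeR adjusted p = 0.792) and did not pass. The 5p arm held 97.9% to 98.7% of the hairpin's reads in the 4 groups. The other arm, miR-31a-3p, had at most 20 reads in a library and was not tested, and miR-31b had 0 reads in all 24 libraries.

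miR-708-5p is a member of the miR-28 family by its seed. Sham cortex held 230 to 306 CPM (median 267) and TBI cortex 267 to 410 CPM (median 339). Sham thalamus held 53.7 to 227 CPM (median 165) and TBI thalamus 62.9 to 153 CPM (median 135). All 6 TBI rats lay above the sham median in cortex and all 6 below it in thalamus, with overlapping ranges in both regions. The log2 difference between TBI and sham was 0.39 in cortex (SE 0.14, edgeR adjusted p = 0.110) and -0.41 in thalamus (SE 0.28, edgeR adjusted p = 0.783). In DESeq2 the cortex value was 0.36 with an adjusted p of 0.0376, a description, since the interaction is built from this contrast. Thalamus and cortex did not overlap in sham rats, by a narrow gap from 227 CPM in thalamus to 230 CPM in cortex. In the order of medians this was the step from sham thalamus to sham cortex. The share of all miRNAs without overlap between these groups was not computed. A lower average level in thalamus was common, at 19.7% of the 407 (edgeR, adjusted p under 0.05). Within rats, the thalamus-minus-cortex difference was -2.32 to -0.24 in sham rats (median -0.63) and -2.07 to -0.997 in TBI rats (median -1.49). The sham range was set by rat 55. Without it the sham rats ran from -0.88 to -0.24, and without rat 56 the TBI rats ran from -1.68 to -0.997. These 2 rats were left out after their values had been seen. The within-rat difference is also the contrast that chose miR-708-5p, so these ranges are a description. Without both rats the interaction was -0.89 with an edgeR adjusted p of 0.0663, which did not pass. It was the smallest adjusted p that any of the 6 reached in the alternatives tried, and it refits the contrast that chose them. With all 12 rats the within-rat differences of TBI and sham overlapped for miR-708-5p, and they were without overlap in 0, or 0%, of the 407 miRNAs. The share of miRNAs without overlap among the 10 other rats was not computed. On average miR-708-5p was lower in thalamus (log2 -1.09, SE 0.16, 2.13-fold, edgeR adjusted p = 5.12e-06), in 12 of 12 rats, and at -0.97 without rats 55 and 56 (edgeR adjusted p = 6.77e-08). Its average TBI effect was -0.04 (SE 0.16, edgeR adjusted p = 0.915) and did not pass.

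The opposite arm of this hairpin is printed because it was read more often than the member arm in most libraries.
rno-miR-708-3p: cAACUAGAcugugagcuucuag
miR-708-3p was lower in thalamus too (log2 -0.76, SE 0.19, edgeR adjusted p = 0.00235), in 11 of 12 rats. Between TBI and sham, however, its log2 difference was -0.46 in cortex (SE 0.21, edgeR adjusted p = 0.212), where that of the 5p arm was positive, and -0.45 in thalamus (SE 0.32, edgeR adjusted p = 0.787). Its interaction was 0.04 (SE 0.38, edgeR adjusted p = 1.00). The share of the hairpin's reads on the 5p arm was 20.1% to 40.3% in sham cortex (median 28.7%) and 32.3% to 51.0% in TBI cortex (median 41.0%). In sham thalamus it was 6.27% to 40.5% (median 35.3%) and in TBI thalamus 11.9% to 46.5% (median 33.6%). The lowest shares were those of rat 55 (24 reads of the 5p arm) and rat 56 (32 reads). In the other 10 thalamus libraries the share was 21.8% to 46.5%, and the cortex libraries of these 2 rats had 40.3% and 32.3%. The 5p reads in these shares entered the interaction that chose miR-708-5p, so the shares are a description. What set the ratio of the arms was not tested.

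**Figure D3:**
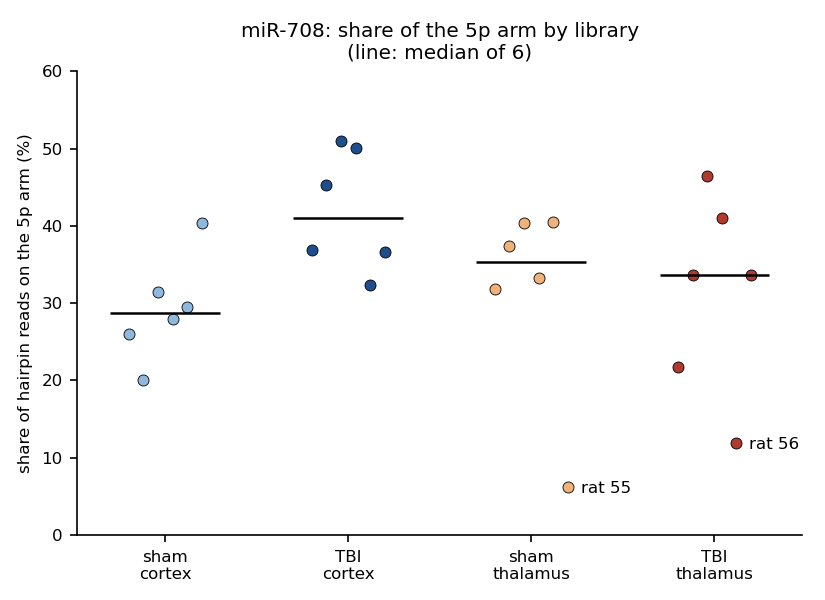
The share of miR-708 hairpin reads that fell on the 5p arm (percent) is plotted for each of the 24 libraries by group, with a line at the median of 6. The thalamus libraries of rats 55 and 56, at 6.27% and 11.9%, lie below the other 22, and the cortex medians are 28.7% in sham and 41.0% in TBI. The 5p reads entered the interaction that chose miR-708-5p, so the shares are a description.

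Both arms of the miR-28 hairpin were read for the same comparisons, of which only miR-28-5p shares the seed of miR-708-5p. miR-28-5p held 39 to 210 reads a library in cortex and 30 to 352 in thalamus, and neither its average region difference (-0.11, SE 0.14, edgeR adjusted p = 0.577) nor its average TBI effect (0.16, SE 0.14, edgeR adjusted p = 0.522) passed. Its interaction was 0.18 (SE 0.29, edgeR adjusted p = 1.00), and whether this differed from that of miR-708-5p was not tested. miR-28-3p, from the other arm of that hairpin, was higher after TBI on average (0.55, SE 0.16, 1.47-fold, edgeR adjusted p = 0.0387), above the sham median in 6 of 6 rats in cortex and 4 of 6 in thalamus. This did not hold with the random replicate block (0.53, limma voom adjusted p = 0.122). It also did not hold without any 1 of rats 26, 32, 38, 45, 50, 52 and 63, where the values were 0.47 to 0.60 and the edgeR adjusted p 0.0581 to 0.116.

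miR-187-3p, which has been described as a brake on inflammatory cytokines in monocytes, had the smallest interaction of the 6. Sham cortex held 53.4 to 84.0 CPM (median 66.5) and TBI cortex 75.4 to 119 CPM (median 85.6). Sham thalamus held 101 to 172 CPM (median 124) and TBI thalamus 90.5 to 141 CPM (median 123). All 6 TBI rats lay above the sham median in cortex, and in thalamus 3 lay above and 3 below. The log2 difference between TBI and sham was 0.44 in cortex (SE 0.17, edgeR adjusted p = 0.136) and -0.14 in thalamus (SE 0.18, edgeR adjusted p = 0.849). The lean of miR-187-3p was thus mostly a cortical one, and its thalamus medians were within 1.01-fold. Within rats, thalamus exceeded cortex by 0.31 to 1.503 log2 units in sham rats (median 0.84) and by 0.09 to 0.89 in TBI rats (median 0.29). Of the TBI rats, 3 lay below the lowest sham rat. The average region difference was 0.67 (log2, SE 0.12, 1.59-fold, edgeR adjusted p = 5.26e-05), with thalamus higher in 12 of 12 rats, and the average TBI effect of 0.12 (SE 0.12, edgeR adjusted p = 0.548) did not pass. The opposite arm, miR-187-5p, had 3 reads in all, 1 in thalamus of sham and 2 in thalamus of TBI rats, so that nearly all reads of this hairpin were on the 3p arm.

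miR-190a-5p, whose host gene Tln2 is expressed in brain, had an average difference between regions that did not pass the test. Sham cortex held 6.16 to 23.5 CPM (median 8.68) and TBI cortex 9.93 to 24.98 CPM (median 15.9). Sham thalamus held 11.2 to 27.9 CPM (median 19.1) and TBI thalamus 6.81 to 24.9 CPM (median 11.2), on 5 to 120 reads a library over both regions. The order of medians, from sham cortex through TBI thalamus and TBI cortex to sham thalamus, crossed the regions, and each group overlapped the next. The log2 difference between TBI and sham was 0.50 in cortex (SE 0.32, edgeR adjusted p = 0.327) and -0.61 in thalamus (SE 0.35, edgeR adjusted p = 0.781). It was the only 1 of the 6 for which the within-rat sign differed between most sham and most TBI rats. Thalamus exceeded cortex in 6 of 6 sham rats, by 0.08 to 1.26 log2 units (median 0.85), and in 2 of 6 TBI rats, with values from -1.25 to 0.77 (median -0.64). Of the TBI rats, 4 lay below the lowest sham rat, and TBI rats 24 (0.77) and 63 (0.16) lay within the sham range. Neither the average region difference (0.18, SE 0.25, edgeR adjusted p = 0.597) nor the average TBI effect (-0.08, SE 0.25, edgeR adjusted p = 0.882) passed. The relative with the same seed, miR-190b-5p, was higher in thalamus (0.71, SE 0.23, 1.63-fold, edgeR adjusted p = 0.0164), in 10 of 12 rats. Its interaction of 0.53 (SE 0.46, edgeR adjusted p = 1.00) had the opposite sign to that of miR-190a-5p and did not pass. The 2 sequences share their first 15 bases, and how the authors assigned reads that match both is not given in the sources used here, so both values are uncertain in that respect.

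miR-218a-2-3p is the minor arm of a hairpin whose 5p arm, miR-218a-5p, is a neuronal miRNA known from motor neurons. Sham cortex held 4.67 to 6.30 CPM (median 5.40, 3 to 15 reads) and TBI cortex 4.00 to 10.0 CPM (median 7.36, 5 to 18 reads). Sham thalamus held 2.22 to 11.2 CPM (median 3.76, 3 to 17 reads) and TBI thalamus 0.730 to 3.93 CPM (median 2.94, 2 to 9 reads). All groups overlapped their neighbour in the order of medians, and the lowest libraries were at or under the 3 reads that a count of 0 allows. In cortex the log2 difference between TBI and sham was 0.39 (SE 0.28, edgeR adjusted p = 0.404), and miR-218a-2-3p did not pass the read filter in thalamus alone. The thalamus-minus-cortex difference within rats was -0.99 to 0.99 in sham rats (median -0.45) and -2.67 to -0.27 in TBI rats (median -1.03), with 3 TBI rats below the lowest sham rat. On average it was lower in thalamus (log2 -0.87, SE 0.27, 1.83-fold, edgeR adjusted p = 0.0121), in 10 of 12 rats. Since it passed the read filter through the cortex libraries, where it was high, this difference is given as a description. The adjusted p was over the threshold when libraries were scaled by their total alone (-0.55, edgeR adjusted p = 0.0961) or without rat 45 (-0.59, edgeR adjusted p = 0.0733) or rat 50 (-0.71, edgeR adjusted p = 0.0528). The average TBI effect of -0.25 (SE 0.27, edgeR adjusted p = 0.601) did not pass.

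miR-218a-5p was counted with 1329 to 27302 reads a library, so that miR-218a-2-3p made up 0.0599% to 0.102% of the reads of both arms in the 4 groups. The 5p strand is the same for the hairpins in Slit2 and Slit3, and its reads include both sources. miR-218a-5p was lower in thalamus (log2 -1.25, SE 0.14, 2.38-fold, edgeR adjusted p = 4.07e-08), in 12 of 12 rats, the same sign as the value of the minor arm. It was also lower after TBI on average (-0.51, SE 0.13, 1.42-fold, edgeR adjusted p = 0.0222), below the sham median in 6 of 6 rats in each region. That call did not hold with scaling by library total (-0.40, edgeR adjusted p = 0.0736), without any 1 of rats 26, 38, 45, 50, 52 and 56 (-0.51 to -0.40, edgeR adjusted p 0.0527 to 0.0857), or without rats 55 and 56 together (-0.52, edgeR adjusted p = 0.050008). With the random replicate block it held (-0.56, limma voom adjusted p = 0.0315). Its interaction was -0.17 (SE 0.27, edgeR adjusted p = 1.00), the same sign as that of miR-218a-2-3p, and did not pass. Whether the interactions of the arms differed was not tested. The 3p arm of the hairpin in Slit2, miR-218a-1-3p, had at most 4 reads in a library and was not tested, and miR-218b had 0 reads in all libraries.

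**Figure D4:**
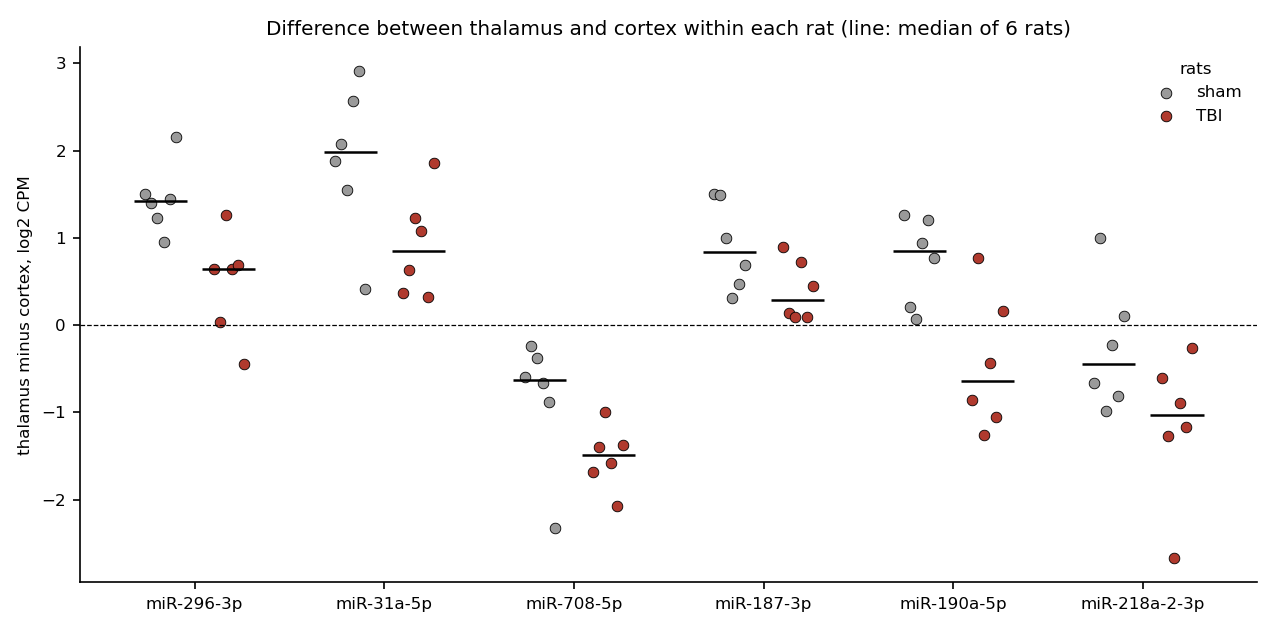
For each rat the log2 CPM in thalamus minus that in cortex is plotted for the 6 miRNAs, sham rats in grey and TBI rats in red, with a line at the median of 6 rats. The TBI median is below the sham median for all 6, as the choice of the miRNAs fixes, and the 2 sets of rats overlap for all 6.

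The paired rats, read over all 6 miRNAs, showed the lean in most animals and overlap in all cases. The within-rat difference between TBI and sham is the contrast that chose the 6, so the lean is a description. The share of all tested miRNAs with such counts was not computed. Of the 6 TBI rats, the number below the sham median of the within-rat difference was 6 for miR-296-3p, miR-31a-5p, miR-708-5p and miR-190a-5p and 5 for miR-187-3p and miR-218a-2-3p. With the rat as a fixed replicate block, which compares the paired libraries of each animal directly, 20 miRNAs had an unadjusted interaction p under 0.05 and 0 passed adjustment. Of the 6, 4 kept an unadjusted p under 0.05, and the adjusted p ran from 0.700 to 0.894 over the 6. With a random replicate block in limma voom 5 of the 6 did, with adjusted p from 0.487 to 0.723. Both blocks refit the contrast that chose the 6 on the same libraries, so these counts are a description too.

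The average effects were the comparisons that the rule did not use, since they sum the groups in other ways than the interaction does. For the region difference, the 4 miRNAs with enough reads in each region alone can be read. Of these, 2 were higher in thalamus (miR-31a-5p and miR-187-3p), where 20.4% of the 407 miRNAs were, 1 was lower (miR-708-5p), where 19.7% were, and miR-190a-5p did not pass. miR-296-3p and miR-218a-2-3p, which passed the read filter through the region where they were higher, are left out of this count. Over all miRNAs 83 were higher and 80 lower, counts that became 163 and 40 when libraries were scaled by their total alone. Thalamus was higher in all 12 rats for miR-31a-5p and miR-187-3p (9.34% of all tested) and lower in all 12 for miR-708-5p (10.6% of all tested). For the average TBI effect, 1 of the 6 was higher (miR-296-3p), where 2.95% of the 407 were, and 0 were lower, where 2.21% were, with a median of 0.03 against 0.00 over all. These calls are from the fit without a rat block, which counts the 2 libraries of a rat as independent. Fewer miRNAs passed with the random replicate block. The call of miR-296-3p is a description, since its cortex gap on few reads enters the interaction as well. It did not hold with the rat as a random replicate block. Marker lists differed between regions as well, the summed oligodendrocyte list from 3482 to 4987 CPM in cortex and 10135 to 17583 CPM in thalamus, and the part of cell composition in the region differences was not tested.

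**Figure D5:**
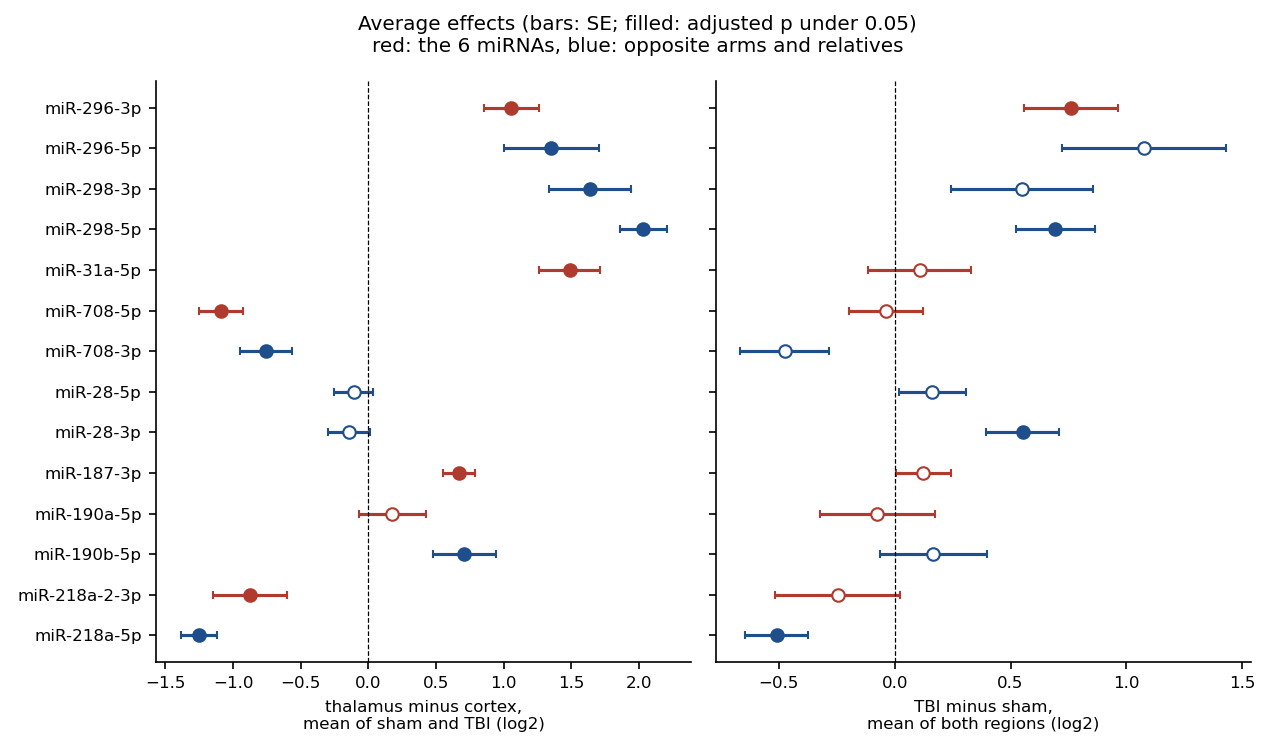
Average log2 differences between thalamus and cortex (left) and between TBI and sham (right) are plotted with their SE for the 6 miRNAs (red) and for the opposite arms, relatives and neighbour that could be tested (blue), filled where the edgeR adjusted p was under 0.05. On the left 5 of the 6 miRNAs are filled, of which miR-296-3p and miR-218a-2-3p passed the read filter through the region where they were higher. On the right only miR-296-3p of the 6 is filled, at 0.76, a call that did not hold with the rat as a random replicate block.

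The 6 did not all vary together over the libraries. After each of the 4 group means was taken off, the correlation of log2 CPM over the 24 libraries ran from -0.48 (miR-296-3p with miR-31a-5p) to 0.73 (miR-31a-5p with miR-708-5p) over the 15 pairs, with a median of -0.11 and 6 positive pairs. These are descriptions over libraries that share rats and depth. Among miRNAs with a mean of at least 50 counts, those most like miR-31a-5p were miR-409a-5p and miR-124-3p (both r = 0.90), and those most like miR-708-5p were miR-194-5p and miR-20a-5p (both r = 0.94). The shallow thalamus libraries of rats 55 and 56 contributed to these values, which were 0.84 and 0.82, and 0.78 and 0.80, over the other 22 libraries. The correlations of the 15 pairs were not computed without these libraries. For miR-296-3p the most alike were miR-330-5p (0.69) and miR-490-3p (0.62), for miR-190a-5p miR-488-3p (0.78) and miR-340-5p (0.75), and for miR-218a-2-3p miR-412-5p (0.59) and miR-541-5p (0.58). For miR-187-3p the highest values were those of let-7c-5p and let-7a-5p (both 0.41).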

How the data were processed

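Small RNA libraries were made with a NEBNEXT kit and sequenced on a NextSeq 500. Per the study's methods, the authors trimmed adapters, checked quality with FastQC, mapped reads to RGSC3.4 and annotated them with miRBase 20. The aligner and the rule for reads that match several miRNAs are not given in the sources used here. The deposited values used were whole-number read counts per miRNA and library, not normalized. The deposited CPM tables were not used.

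Groups and rat numbers came from the sample titles. The 24 libraries (12 rats, 728 miRNAs) were fitted together with edgeR 4.0.16 in R 4.3.3 (filterByExpr, TMM, robust quasi-likelihood test, Benjamini-Hochberg over all miRNAs tested, threshold 0.05), and each region alone as the study did. The SE is the size of the log2 difference over the square root of F. For single libraries, log2 CPM had a prior count of 2. A count of 0 allows up to 3 reads, for counting error only, since PCR copies are not independent. Alternatives were DESeq2 1.42.0, limma 3.58.1 (voom), other scalings and filters, each rat left out, a rat block, and 2 chosen after seeing the data (without the 2 rats of lowest thalamus depth, and no robust step). Scripts were tested on simulated data. Reads of near-identical miRNAs are uncertain.

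The rat number marks libraries of the same animal, so it pairs cortex with thalamus. Deviations from the group means correlated between the libraries of a rat at 0.30 to 0.64 in TBI rats and -0.18 to 0.49 in sham rats (median of all 12, 0.38). No 2 libraries were duplicates.

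The 6 miRNAs and all lists were chosen with earlier results of these data known. Named are the 6, their opposite arms and relatives, the 2 most alike miRNAs for each, the miRNAs nearest the threshold on each side, and by name the others inside it.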

Additional observations from a re-analysis of the deposited data

Results flagged for a closer look

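In 3 of the 24 sets of 6 libraries (6 miRNAs in 4 groups), 1 library lay far from the other 5, by a gap above Dixon's critical value for 6 samples. Chance alone flags about 1 in 20 such sets. For miR-296-3p in TBI cortex, rat 63 was at 12.0 CPM (15 reads) and the next library at 5.74 CPM, and without rat 63 the average TBI effect was 0.62 with an edgeR adjusted p of 0.0762. For miR-190a-5p in TBI thalamus, rat 24 was at 24.9 CPM (79 reads) and the next at 13.4 CPM. For miR-218a-2-3p in TBI thalamus, rat 45 was lowest at 0.730 CPM (3 reads), and the next library was at 2.83 CPM. No cause was tested.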

How the results depend on the processing

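The interaction had 0 calls in edgeR under all alternatives tried and in DESeq2 and limma voom, and its sign stayed negative for all 6 miRNAs in each alternative that fitted them. The number of the 6 with an unadjusted interaction p under 0.05 was 3 with a mean of at least 50 counts required, which left 3 of them in the fit, and 2 to 6 when 1 rat was left out (2 without rat 24, and 3 without rat 22, 32, 38 or 45). Over all miRNAs that count, 17, became 26 with scaling by library total, 11 with a mean of at least 50 counts, 36 without both rats of lowest thalamus depth, and 7 (without rat 24 or 32) to 42 (without rat 55) when 1 rat was left out. Cortex calls, 22, became 39 with scaling by library total, 35 in DESeq2, 5 as a contrast in the fit of all 24 libraries, and 4 to 30 with 1 rat left out. Thalamus calls, 2, became 1 with a mean of at least 50 counts, 5 as a contrast of all 24 libraries, and 0 to 2 with 1 rat left out. Calls of the average TBI effect, 21, became 37 in DESeq2, 9 with the random replicate block, and 5 to 36 with 1 rat left out.

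With scaling by library total the median log2 value of all miRNAs was -0.27 for the interaction (-0.005 with TMM) and 0.25 in cortex (0.05 with TMM). It was 0.32 for the region difference (0.005 with TMM) and 0.12 for the average TBI effect (-0.001 with TMM). The region calls then divided into 163 higher and 40 lower in thalamus, against 83 and 80. Cortex calls then divided into 36 higher and 3 lower against 11 and 11 (21 and 14 in DESeq2), and calls of the average TBI effect into 21 and 4 against 12 and 9 (15 and 6 with RLE size factors, 27 and 10 in DESeq2). The average TBI effect of miR-708-5p, which was not called, changed sign to 0.0741 with that scaling and ran from -0.100 (without rat 55) to 0.0809 (without rat 56) with 1 rat left out, positive also without rats 34 and 50. That of miR-190a-5p became 0.0307 with that scaling and ran from -0.231 (without rat 24) to 0.139 (without rat 34), positive also without rats 38, 45 and 52. Beside DESeq2, miR-708-5p passed in cortex with scaling by library total (0.59, edgeR adjusted p = 0.0413), as did miR-187-3p (0.64, edgeR adjusted p = 0.0413), and miR-31a-5p without rat 63 (0.83, edgeR adjusted p = 0.0489). These cortex values are descriptions, since the interaction that chose the 6 is built from this contrast. With scaling by library total the median of all miRNAs in cortex was itself 0.25. With the fixed replicate block 197 region differences were called against 163 without it, and no call of the 6 changed in the region difference. The causes were not tested. Depth limits miR-296-3p and miR-218a-2-3p most, with 1 to 39 reads a library.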
